A study of Mus musculus with 2254 samples.

Results

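The genes described here are 40 genes of the interstitial extracellular matrix and the elastic fibre, taken by name from the 30950 rows of a count table of single mouse brain cells. They comprise 7 chains of the fibril-forming collagens, 5 chains of other collagens, 12 elastic fibre and microfibril proteins, 3 lysyl oxidases, 5 small leucine-rich proteoglycans and 8 further glycoproteins and matricellular proteins. All 40 had a row in the table. The choice goes by gene name and uses no measured value. The cells came from adult C57BL/6 mice that carried SM22-Cre and Rosa26-stop-tdTomato, a reporter that marks cells in which the SM22 (Tagln) promoter has driven Cre, together with their progeny. One group of 1127 cells was labelled Notch3 KO and the other 1127 cells carried the WT label, and both groups carried the Cre and the reporter. Single cells were sorted by fluorescence into 384-well plates and sequenced by Smart-seq2, which copies whole polyadenylated transcripts. The sort gates are not given in the sources used here.

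Each plate held 1 genotype: plates 043, 467 and 471 carried the KO label, plates 044, 468 and 469 the WT label. The labels name no animal or litter. Each genotype is therefore a single sample here, and genotypes were compared without a test. Plate and genotype cannot be told apart within a single pair of plates. Values are given per plate, and any spread over plates is a description of these plates. Plates 043 and 044 and plates 467 to 471 form 2 runs of plate numbers, and the KO against WT difference is given within each run where it moved.

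Interstitial matrix lies between cells and in the outer vessel wall, where fibrillar collagens carry tension and small leucine-rich proteoglycans sit on the fibrils and limit their width. Elastic fibres have a core of elastin on a scaffold of fibrillin microfibrils, with fibulins, emilin and microfibril-associated proteins guiding assembly and latent TGF-beta binding proteins tethering that growth factor to the scaffold. Lysyl oxidases crosslink both collagen and elastin. In brain, fibroblasts sit in the meninges and around larger vessels, smooth muscle cells wrap arteries and arterioles, pericytes cover capillaries, and endothelial cells line all of them.

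A median of 291872 counts per cell was present over the 2254 cells (range 49473 to 763059), with plate medians of 250834 to 358168, and 2252 cells with at least 50000 counts and 1000 detected genes were kept. Clusters were made without the 40 members and without Notch3, so the members did not define the classes. This gave 784 smooth muscle-like cells (474 KO and 310 WT), 170 fibroblast-like cells (131 and 39), 63 pericyte-like cells (34 and 29) and 156 endothelial-like cells (12 and 144). The marker genes met the names: Myh11 stood at 3462 to 5874 CPM over the smooth muscle-like plates, Kcnj8 at 953 to 1744 CPM in pericyte-like cells and Cldn5 at 1999 to 2412 CPM in endothelial-like cells. Cldn5 also stood at 572 and 791 CPM in the pericyte-like cells of plates 468 and 469. CPM, the usual scaling of counts to a common library total, were taken from counts summed over the cells of a class on a plate with at least 10 such cells. A further 2 clusters, numbers 4 and 7 (336 cells), carried both smooth muscle and pericyte genes, stayed unnamed and are described on their own. In smooth muscle-like cells Notch3 itself was at 52.6, 107 and 124 CPM on the KO plates 043, 467 and 471 and at 165, 668 and 964 CPM on the WT plates 044, 468 and 469. All 3 KO plates were below all 3 WT plates, with WT plate 044 nearest to the KO plates.

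The matrix genes were divided unevenly among the classes, with fibroblast-like cells highest for most of them. Of the 40 members, 32 had their highest mean CPM in fibroblast-like cells, 3 in smooth muscle-like cells (Ltbp1, Thbs1 and Mgp), 4 in pericyte-like cells (Col5a3, Col8a1, Col14a1 and Sparc) and 1, Fn1, in endothelial-like cells. The 40 genes together made up 19612 to 25632 CPM of the fibroblast-like libraries, 4691 to 10561 CPM of the smooth muscle-like, 4100.2 to 17233 CPM of the pericyte-like and 3429.9 to 4105 CPM of the endothelial-like libraries. At least 10 CPM on average was reached by 39 members in fibroblast-like, 23 in smooth muscle-like, 25 in pericyte-like and 9 in endothelial-like cells. For 15 of the 32 fibroblast-highest genes every fibroblast-like plate lay above every plate of the next class, and 22 of the 32 were highest in fibroblast-like cells on all 6 plates. Of the 12667 genes with at least 10 CPM in any of these classes, 27.5% were highest in fibroblast-like, 20.5% in smooth muscle-like, 23.4% in pericyte-like and 28.6% in endothelial-like cells. Fibroblast-like plates were apart from the next class for 3.98% of them, and 7.52% were highest there on all 6 plates. The pericyte-like count depended on the choice of cells: it was 10 without cells that carried markers of a second class and 1 with all deposited cells, when the smooth muscle-like class led for 5 members and the endothelial-like class for 2. These classes come from plates of unequal make-up: pericyte-like cells reached 10 cells on plates 043, 468 and 469 only, and endothelial-like cells on WT plates 468 and 469 only.

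**Figure D1:**
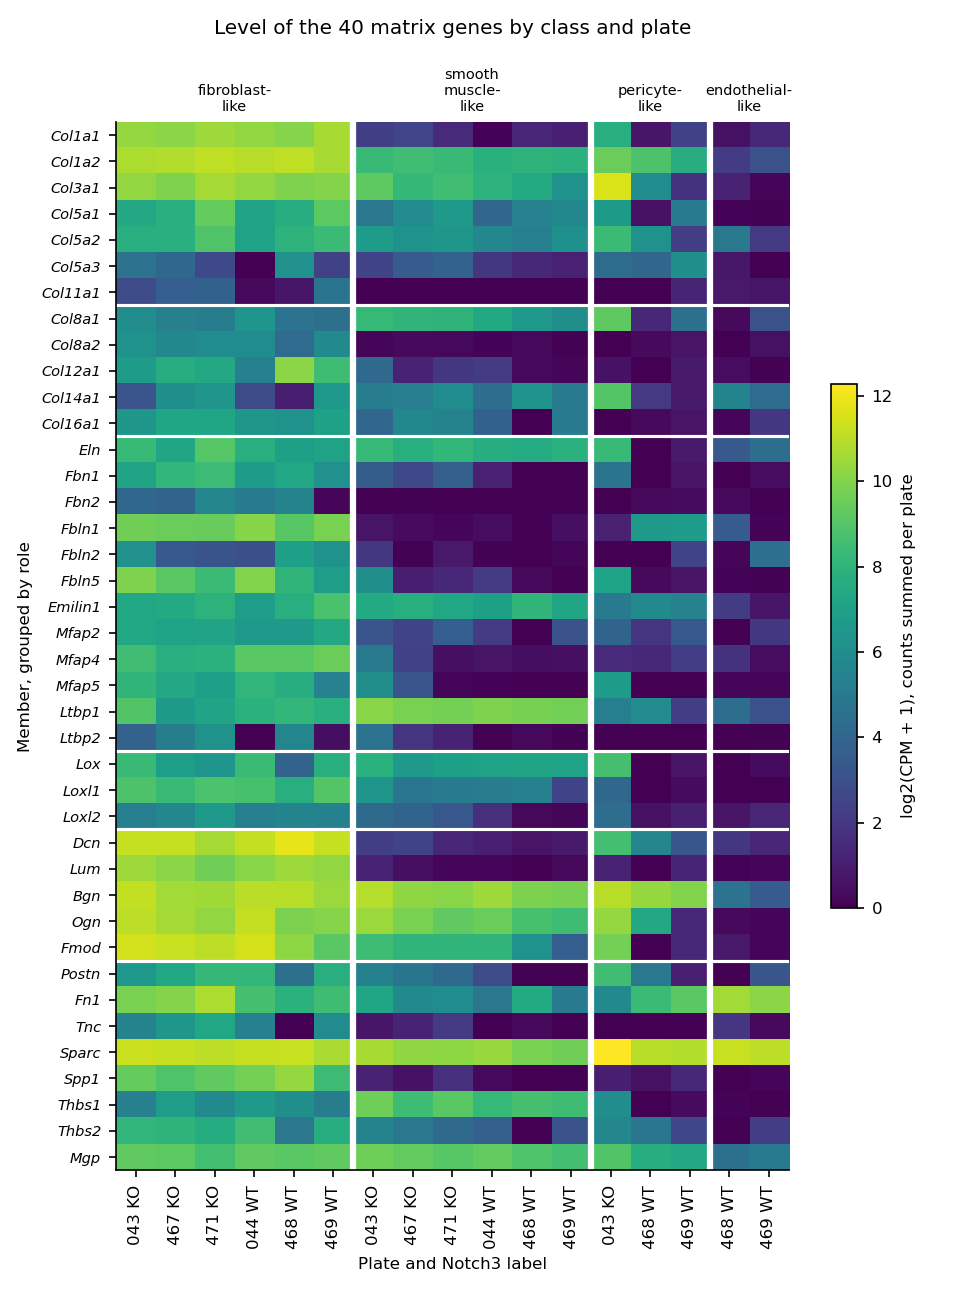
Heat map of the 40 members (rows, grouped by role) in each class and plate (columns: 6 fibroblast-like, 6 smooth muscle-like, 3 pericyte-like and 2 endothelial-like), coloured by log2(CPM + 1). Means of at least 10 CPM are reached by 39 genes in the fibroblast-like and 23 in the smooth muscle-like columns, and the pericyte-like column of KO plate 043 differs from those of plates 468 and 469.

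Fibril-forming collagens were led by fibroblast-like cells for 6 of the 7 chains. Col1a1, a chain of collagen I, the main fibrillar collagen (GRCm38 chromosome 11, 94936224 to 94953042), was at 1067, 1268 and 1619 CPM as the lowest, median and highest of the 6 fibroblast-like plates. In smooth muscle-like cells it was at 0.1, 1.59 and 4.87 CPM, so the 2 classes lay far apart on every plate. Col1a2, the partner chain (chromosome 6, 4504814 to 4541544), was at 1624, 1936 and 2211 CPM in fibroblast-like cells and 219, 285 and 363 CPM in the smooth muscle-like class. Both sets of plates were well above 100 CPM, unlike those of Col1a1. Col3a1, the collagen III gene of distensible tissue (chromosome 1, 45311538 to 45349706), was at 942, 1131 and 1567 CPM in fibroblast-like, 78.1, 271 and 607 CPM in smooth muscle-like and 3076 CPM on KO plate 043 and 62.7 and 2.54 CPM on WT plates 468 and 469 in pericyte-like cells. The highest value of Col3a1 thus sat in the pericyte-like cells of 1 plate. Among the fibril-initiating collagen V chains, Col5a1 averaged 326 ± 225 CPM (SD, n = 6 plates) in fibroblast-like and 48.9 ± 27.6 CPM in the smooth muscle-like class. Col5a2 averaged 269.8 ± 119 CPM and 72.3 ± 24.5 CPM in the same order. Col5a3 was low everywhere, at 20.6 CPM in fibroblast-like and 34.1 CPM in pericyte-like cells, and the plate values of those classes overlapped. Col11a1, a minor fibril chain typical of cartilage, was the 1 member below 10 CPM in fibroblast-like cells, at 9.53 CPM.

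The other collagens split between the classes. Col12a1 and Col16a1, fibril-associated collagens, and Col8a2, a short-chain network collagen, were highest in fibroblast-like cells, at means of 329, 116 and 54.7 CPM against 4.26, 26.2 and 0.151 CPM in the smooth muscle-like class. Col12a1 ranged from 41.3 to 1113 CPM over the fibroblast-like plates, with WT plate 468 highest. Col8a1, the partner chain of Col8a2 (chromosome 16, 57624258 to 57754737), ran the other way, at 66.3, 212 and 297 CPM in the smooth muscle-like class and 22.1, 37.8 and 87.8 CPM in fibroblast-like cells. The chains of collagen VIII therefore had different leading classes, with Col8a2 at 0.0674 to 0.223 CPM in the smooth muscle-like class. Col14a1, a fibril-associated collagen, was at 20.3, 36.7 and 77.7 CPM in smooth muscle-like and 1.04, 38.5 and 91.8 CPM in fibroblast-like cells, and these ranges overlapped.

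By mean CPM, elastic fibre genes were highest in fibroblast-like cells for 11 of 12 members, yet elastin stood at overlapping levels in smooth muscle-like cells. Fibroblast-like cells were highest on only 3 of 6 plates for Eln and on 2 of 6 for Emilin1. Eln, the elastin gene (chromosome 5, 134702593 to 134747323), was at 123, 179 and 533 CPM in fibroblast-like and 184, 218 and 301 CPM in the smooth muscle-like class, and the ranges overlapped. Emilin1, a glycoprotein of the elastin and microfibril interface, was likewise at 116, 198 and 431 CPM in fibroblast-like and 123, 169.9 and 258 CPM in the smooth muscle-like class. Ltbp1, which tethers latent TGF-beta to microfibrils (chromosome 17, 75005568 to 75392512), was at 813, 892 and 1110.3 CPM in the smooth muscle-like class and 103, 227 and 499 CPM in fibroblast-like cells. Every smooth muscle-like plate of Ltbp1 lay above every fibroblast-like plate, a pattern that Thbs1 alone shared among the 40 genes. The scaffold and assembly genes were on the fibroblast-like side. Fibrillin-1 (Fbn1) averaged 185 ± 105 CPM (SD, n = 6 plates) in fibroblast-like and 5.03 ± 5.60 CPM in the smooth muscle-like class, and fibrillin-2 (Fbn2) 25.9 and 0.013 CPM. The fibulins Fbln1, Fbln2 and Fbln5 averaged 784, 49.5 and 534 CPM in fibroblast-like cells and 0.29, 0.654 and 12.2 CPM in the smooth muscle-like class. Fbln1 also reached 94.4 and 104 CPM in the pericyte-like cells of plates 468 and 469. The microfibril-associated genes Mfap2, Mfap4 and Mfap5 averaged 134, 443 and 178 CPM in fibroblast-like cells and 5.94, 6.04 and 12.3 CPM in the smooth muscle-like class. Ltbp2, a microfibril protein of the Ltbp family, was at 0, 23.9 and 78.0 CPM in fibroblast-like cells, with WT plate 044 listed lowest and KO plate 471 highest. The smooth muscle-like cells of this preparation thus carried elastin, emilin and Ltbp1 transcripts with few fibrillin, fibulin and Mfap transcripts.

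The lysyl oxidases differed in the same manner. Lox was at 14.2, 169 and 334 CPM in fibroblast-like and 100.0, 134 and 231 CPM in the smooth muscle-like class, with overlapping ranges. Loxl1, the oxidase tied to elastic fibre upkeep, was at 217, 426 and 512 CPM in fibroblast-like and 4.58, 35.0 and 84.5 CPM in the smooth muscle-like class, without overlap. Loxl2 averaged 52.4 ± 23.6 CPM and 7.31 ± 7.65 CPM (SD, n = 6 plates).

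All 5 small leucine-rich proteoglycans were highest in fibroblast-like cells, and they fell into a pair with almost no smooth muscle reads and a trio with many. Dcn (decorin, chromosome 10, 97479609 to 97518143) was at 1594, 2328 and 3618 CPM in fibroblast-like and 0.547, 1.31 and 4.80 CPM in the smooth muscle-like class. Lum (lumican), its neighbour on chromosome 10, was at 783, 1178 and 1438 CPM, against 0, 0.187 and 1.29 CPM in the same order. The highest smooth muscle-like plate stayed at 4.80 CPM for Dcn and 1.29 CPM for Lum. Bgn (biglycan), by contrast, was at 1401, 1766 and 2238 CPM in fibroblast-like and 862, 1159 and 1929 CPM in the smooth muscle-like class. Ogn (osteoglycin) was at 916, 1409.8 and 2261 CPM, against 351, 677 and 1359 CPM. Fmod (fibromodulin, chromosome 1, 134037254 to 134048277) was at 554, 2289.5 and 2839.9 CPM, against 11.5, 261 and 354 CPM, with WT plate 469 lowest in both classes.

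The glycoproteins and matricellular proteins showed every kind of pattern. Fn1 (fibronectin, chromosome 1, 71585520 to 71653200) was at 1514 and 1126 CPM in endothelial-like cells of plates 468 and 469, against 226 and 347 CPM in the fibroblast-like cells and 334 and 566 CPM in the pericyte-like cells of those plates. On those shared plates endothelial-like cells were highest, while over all 6 plates the fibroblast-like range of 226 to 1749 CPM overlapped theirs. Sparc, a collagen-binding glycoprotein, was high in all 4 classes, at 1711, 2373 and 2481 CPM in fibroblast-like cells, 783, 1192 and 1605 CPM in the smooth muscle-like class and 2407 and 2148 CPM in endothelial-like cells. In pericyte-like cells Sparc was at 4967 CPM on KO plate 043 and 1997 and 1847 CPM on WT plates 468 and 469. Thbs1 (thrombospondin-1, chromosome 2, 118111876 to 118127133) was at 297, 378 and 761 CPM in smooth muscle-like and 34.1, 62.8 and 113 CPM in fibroblast-like cells. Mgp (matrix Gla protein, an inhibitor of vessel calcification) was at 389, 595 and 746 CPM in smooth muscle-like and 371, 593 and 626 CPM in fibroblast-like cells. The Mgp ranges overlapped and those of Thbs1 did not. The remaining genes were on the fibroblast-like side. Spp1 (osteopontin) averaged 703 ± 328 CPM (SD, n = 6 plates) in fibroblast-like and 0.69 ± 0.836 CPM in the smooth muscle-like class. Thbs2, Postn (periostin) and Tnc (tenascin-C) averaged 219, 174 and 65.7 CPM in fibroblast-like cells and 18.5, 15.3 and 0.902 CPM in the smooth muscle-like class.

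Levels of different genes were compared per kilobase of exon, since longer transcripts give more Smart-seq2 reads. The length was the union of all annotated exons of a gene, which can exceed its main transcript, so the order depends on these lengths. On that scale the leading members in fibroblast-like cells were Fmod at 603, Ogn at 596, Sparc at 596, Lum at 484 and Mgp at 472 CPM per kb. Dcn and Bgn, at 2423 and 1780 CPM without this scaling and with union lengths of 5838 and 6099 bases, were not among these 5. In smooth muscle-like cells Mgp led at 484 CPM per kb, followed by Sparc at 308, Ogn at 284, Bgn at 203 and Ltbp1 at 85.8. In pericyte-like cells the order was Sparc (775), Mgp (239.9), Bgn (236), Ogn (191) and Col3a1 (107). In endothelial-like cells only Sparc (601) and Fn1 (113) exceeded 100 CPM per kb, and the next were Mgp (22.3), Col14a1 (4.57) and Bgn (2.90). Sparc and Mgp were therefore among the 5 leading members of every class on that scale.

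The pericyte-like class was made of 2 clusters with unlike matrix genes and unlike plates. Cluster 16 (32 cells, 28 of them WT) was led by Atp13a5, Abcc9 and Kcnj8, and cluster 17 (31 cells, 30 of them KO and 19 of those on plate 043) by Steap4, Chrdl1 and Colec11, with Ccl19 and Cxcl1 among its next genes. The pericyte name of cluster 17 was borderline, with a mean scaled level of the pericyte markers of 0.804 where at least 0.8 was needed. Cluster 16 stood at 0.991. Over all its cells cluster 17 had Col3a1 at 3176 CPM, Sparc at 4944, Fmod at 814, Col8a1 at 577, Col14a1 at 509.8, Dcn at 461 and Eln at 381 CPM. In cluster 16 the same genes were at 52.7, 1994, 18.0, 46.4, 12.9, 23.5 and 0.29 CPM. Fn1 ran the other way, at 92.0 CPM in cluster 17 and 381 CPM in cluster 16. The pericyte-like lead for Col8a1, Col14a1 and Sparc thus rested on the cells of KO plate 043, and cluster, genotype and plate cannot be told apart there. Genotypes were not compared in pericyte-like or endothelial-like cells, because only 1 KO plate and 0 KO plates, respectively, held 10 such cells.

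Within the fibroblast-like cells, a finer clustering gave a sub-cluster of 87 cells and another of 83 cells that differed in the solute carrier Slc6a13, at 343 and 1827 CPM as means over plates with at least 5 cells. The Slc6a13-low cells were the higher of the pair for 8 of the 40 members without overlap between the plates of the sub-clusters, as were 1.27% of the 11501 genes with at least 10 CPM in either. The reverse held for 0 members (0.878% of those genes). Lum stood at 1680.1 and 558 CPM in Slc6a13-low and Slc6a13-high cells, Bgn at 2324 and 1191 CPM, Mgp at 881 and 196 CPM and Loxl1 at 613 and 190.01 CPM. The largest ratios among these 8 were those of Col8a1 at 94.9 and 1.22 CPM, Col14a1 at 99.2 and 1.62 CPM, Mfap5 at 311 and 15.8 CPM and Col8a2 at 102 and 10.8 CPM. The fibroblast-like Col8a1 and Col14a1 reads therefore came almost wholly from the Slc6a13-low cells. The main fibril genes were similar in both, with Col1a1 at 1344 and 1313 CPM, Col1a2 at 1850.1 and 1997 CPM and Sparc at 2096 and 2381 CPM. Fbln1 and Fmod had higher means in Slc6a13-high cells, at 593 and 1068 CPM and 1564 and 2605 CPM, with overlapping plates. The Slc6a13-low share of fibroblast-like cells was 18.2% to 62.9% over the plates, lowest on WT plate 468.

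Smooth muscle-like cells fell into 4 clusters, and the members differed in how evenly they were read across them. Over all cells of clusters 1, 2, 9 and 10, Eln was at 219.6, 265, 239 and 289 CPM and Col1a2 at 305, 268, 256 and 319 CPM. Thbs1 was less even, at 512, 586, 182 and 306 CPM. Ltbp1 was at 904, 1021, 1088 and 597 CPM. Cluster 10 (83 cells, 75 of them KO, led by Ptgs2 and Rarres1) stood apart in several members. Its Col3a1 was at 86.6 CPM against 319.8, 437 and 379 CPM in clusters 1, 2 and 9, and its Col8a1 at 34.3 CPM against 235, 251 and 269 CPM. Its Ogn was at 1543 CPM against 527, 901 and 792 CPM, and its Postn at 148 CPM against at most 2.83 CPM. Clusters 1 and 2 mostly came from different plate runs, cluster 2 from plates 043 and 044 and cluster 1 from plates 467 to 471. Cluster 9 was led by Ttr, a choroid plexus transcript.

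Reads of fibroblast genes in smooth muscle wells were measured with 15 fibroblast markers that are not members. Of these, 8 had at least 10 CPM in fibroblast-like cells on every plate and, with Islr and Twist1 set aside, served as the reference, a choice made after the data were seen: Pdgfra, Slc6a13, Slc22a6, Serpinf1, Osr1, Crabp2, Aldh1a2 and Clec3b. In smooth muscle-like cells they reached at most 8.04% of their fibroblast-like level of the same plate, for Serpinf1 on KO plate 043. Islr, at 3.03% to 18.0%, and Twist1, at 38.4% to 290.2%, reached higher values. On every plate 14 members lay above 8.04%: Col1a2, Col5a1, Col5a2, Col8a1, Col14a1, Eln, Emilin1, Ltbp1, Lox, Bgn, Ogn, Sparc, Thbs1 and Mgp. A further 9 members with at least 10 CPM in fibroblast-like cells of every plate stayed at or below it throughout (Col1a1, Col8a2, Fbn1, Fbln1, Fbln5, Mfap2, Dcn, Lum and Spp1), as did Col11a1, Fbn2 and Tnc wherever they could be measured, with some fibroblast-like plates under 10 CPM. The other 14 lay above it on some plates only, Col3a1 and Fmod among them. Col3a1 was at 7.67% on WT plate 469 and above the reference on the other plates. Fmod was at 6.39% and 2.08% on WT plates 468 and 469 and reached at most 12.6%, on KO plate 043. With Islr counted in the reference the highest value becomes 18.0%, and 11 members lie above it on every plate, without Col1a2, Col5a1 and Col5a2. Dcn was at 0.0151% to 0.203%, Lum at 0% to 0.09% and Col1a1 at 0.00792% to 0.427% of the fibroblast-like level. Bgn, by comparison, was at 46.5% to 86.2%, Col1a2 at 11.0% to 19.3% and Thbs1 at 298% to 1895%. By the mean of the plate percentages, 5 members were above all 15 markers (Col8a1, Col14a1, Ltbp1, Lox and Thbs1). For Lox and Col14a1 that mean rested on WT plate 468, where their fibroblast-like levels were 14.2 and 1.04 CPM, and their medians over plates were 80.4% and 201%.

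**Figure D2:**
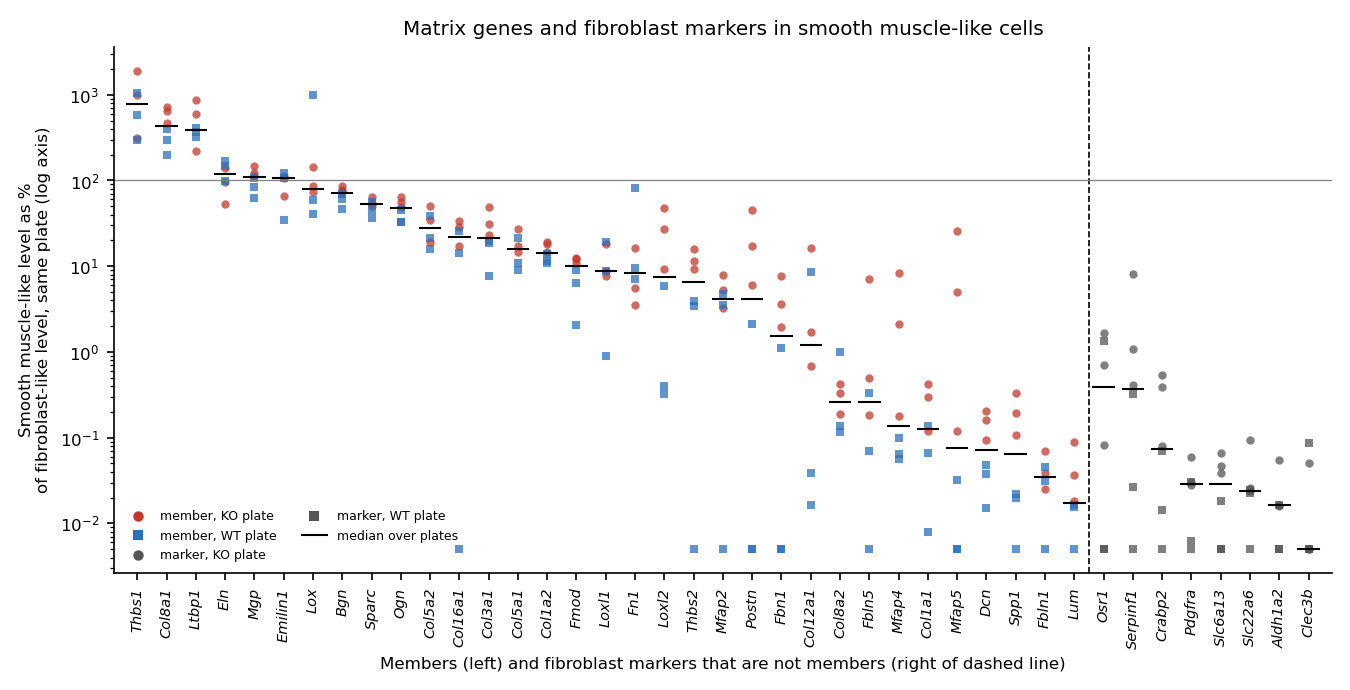
Level in smooth muscle-like cells as a percent of the level in fibroblast-like cells of the same plate (log axis), for 33 members and 8 fibroblast markers with at least 10 CPM in the fibroblast-like cells of every plate; each point is 1 plate, 7 members are not plotted, values below 0.005% are drawn at 0.005%, the horizontal line marks 100%, and the dashed line parts members from markers. Islr also meets the 10 CPM criterion, at 3.03% to 18.0%, and is not plotted. These 8 markers, with Dcn, Lum and Col1a1, lie at the low end, and Thbs1, Col8a1 and Ltbp1 lie above 100% on all 6 plates.

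The same question was put to single wells. Of the 784 smooth muscle-like cells, 319 had no read of any of the 15 fibroblast markers, with at least 13 such cells on every plate. In those cells Col1a2 was at 93.1% of its mean over all smooth muscle-like cells, Col3a1 at 95.6%, Ltbp1 at 94.4%, Thbs1 at 94.0%, Mgp at 102% and Eln at 81.7%. The main smooth muscle matrix genes were thus read at similar levels in wells free of those markers. Dcn was at 107% there, Lum at 77.6% and Col1a1 at 69.8%, with Dcn at 2.25 CPM. Low-level reads of those fibroblast-side genes therefore remained in these wells. On KO plate 043, however, Mfap5, Fbln5 and Ltbp2 were at 65.4, 67.3 and 24.2 CPM over all smooth muscle-like cells and at 0, 1.02 and 0 CPM in the cells without a marker read. Those 3 genes were at or below 8.43 CPM in the smooth muscle-like class on each other plate.

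The chains of collagen I were read together in fibroblast-like cells, and mostly Col1a2 alone was read in smooth muscle-like cells. Collagen I is normally a trimer of a pair of chains from Col1a1 and one from Col1a2. Per kilobase, Col1a1 was at 92.1% to 189% of Col1a2 in fibroblast-like cells and at 0.0864% to 2.54% of it in smooth muscle-like cells. In CPM without that scaling it was at 48.7% to 99.7% and at 0.0456% to 1.34%. The scaling used union exon lengths of 6563 bases for Col1a1 and 12426 for Col1a2. Whether Col1a1 was below or near Col1a2 in fibroblast-like cells thus depends on these lengths. All 170 fibroblast-like cells had a read of both genes. Of the 784 smooth muscle-like cells, 551 had a read of Col1a2 only (70.3%, exact Clopper-Pearson 95% interval 66.9% to 73.5%, counting error only), 64 had both, 14 had Col1a1 only and 155 had neither. With each cell thinned to 50000 counts, 72.7% of smooth muscle-like cells kept a Col1a2 read and 3.44% a Col1a1 read, and unthinned shares were 78.4% and 9.95%. In endothelial-like cells, which had 5.33 CPM of Col1a2, the thinned shares were 8.97% and 3.85%. The Col1a1 share in smooth muscle-like cells was thus no higher than in endothelial-like cells, and the Col1a2 share was far above theirs. In cluster 17 of the pericyte-like cells both chains were read, at 201 and 683 CPM, and in cluster 16 mainly Col1a2, at 1.74 and 337 CPM.

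**Figure D3:**
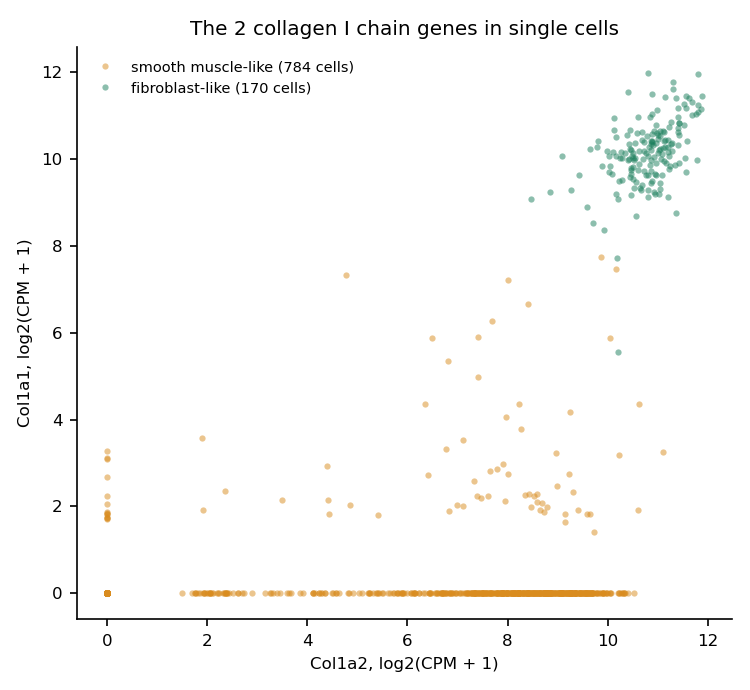
Col1a2 against Col1a1 in single cells, log2(CPM + 1) on both axes, for 784 smooth muscle-like and 170 fibroblast-like cells; each point is 1 cell. Fibroblast-like cells have both chains, and most smooth muscle-like cells lie along the Col1a2 axis with no Col1a1 read.

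KO and WT plates were then compared in smooth muscle-like cells. In these cells 3 members were higher in the KO by the size rule: Col3a1, Col8a1 and Fmod. The rule asks for at least 10 CPM over all plates and a read in at least 10% of cells (a measured gene), a difference of at least 1 in mean log2(CPM + 1), and KO and WT plates that do not overlap. By this rule 2.61% of the 9163 measured genes were KO-higher and 0.928% KO-lower. Among the 40 members 19 were measured, 3 were higher and 0 were lower. KO and WT plates did not overlap for 5 of the 19 (10.2% of all measured genes, either direction). All 19 differences were above 0 (56% of all measured genes), with a median of 0.52 against 0.06 over all measured genes. The other members did not pass the filter on low values and are left out of these counts. The members share the same libraries, so these counts describe these plates.

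The 3 genes are shown with the 250 bases upstream of their annotated RefSeq start (GRCm38.p6, on the gene's own strand, 5′ to 3′), because they carry the genotype comparison. Among the 40 members 24 had an entry in the RefSeq promoter table. Capitals mark the TATA box letters where they were found.
Col3a1, chr1:45311288-45311537, plus strand: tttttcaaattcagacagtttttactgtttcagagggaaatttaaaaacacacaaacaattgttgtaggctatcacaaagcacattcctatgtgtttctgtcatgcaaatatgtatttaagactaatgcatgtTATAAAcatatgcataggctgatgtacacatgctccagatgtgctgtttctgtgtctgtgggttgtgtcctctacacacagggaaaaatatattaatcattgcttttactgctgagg
Col8a1, chr16:57754738-57754987, minus strand: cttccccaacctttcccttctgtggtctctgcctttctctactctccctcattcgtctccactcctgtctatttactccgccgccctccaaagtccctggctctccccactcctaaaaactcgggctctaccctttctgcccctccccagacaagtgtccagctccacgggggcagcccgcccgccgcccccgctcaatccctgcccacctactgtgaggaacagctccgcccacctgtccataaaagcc
Fmod, chr1:134037004-134037253, plus strand: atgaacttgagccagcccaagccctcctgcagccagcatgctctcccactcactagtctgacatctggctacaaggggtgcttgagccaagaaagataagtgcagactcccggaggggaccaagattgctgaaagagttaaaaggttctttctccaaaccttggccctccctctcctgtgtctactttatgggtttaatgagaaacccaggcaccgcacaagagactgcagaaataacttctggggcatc
In all, 4 motifs were searched on both strands: the TATA box letters TATAAA, the promoter box with the letters CCAAT, the core TGGGAA bound by the Notch partner Rbpj, and the CArG box bound by serum response factor. TATAAA was present at 1 place, 117 bases upstream of the start of Col3a1 on the gene's own strand, and it is found in 12.4% of the 32851 promoters of that length. CCAAT, the CArG box and TGGGAA were not in the windows of these 3 genes, and they are in 33.8%, 1.47% and 21.6% of all promoters. The windows of Col8a1 and Fmod had no TATAAA.

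Col3a1 in smooth muscle-like cells was at 607, 293 and 363 CPM on KO plates 043, 467 and 471 and at 248, 180.4 and 78.1 CPM on WT plates 044, 468 and 469. Every KO plate was above every WT plate, with KO plate 043 highest and WT plate 469 lowest. The difference was 1.4 in log2(CPM + 1) (SD 0.54 over the KO plates and 0.85 over the WT plates). Over all cells of a genotype, Col3a1 was at 419 CPM (416 to 423) in KO and 216 CPM (213 to 219) in WT, where the exact Poisson 95% interval covers counting error only. Without WT plate 469 the difference was 0.92 and below the size rule.

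Col8a1 was at 297, 260.1 and 250.1 CPM on KO plates 043, 467 and 471 and at 173, 97.4 and 66.3 CPM on WT plates 044, 468 and 469. The KO plates were alike and the WT plates spread below them. The difference was 1.36 (SD 0.13 over the KO plates and 0.69 over the WT plates), with 266 CPM (263 to 269) over all KO cells and 151 CPM (149 to 154) over all WT cells. Within plates 043 and 044 it was 0.77, and within the later plates 1.65. Fmod was at 354, 264 and 264 CPM on KO plates 043, 467 and 471 and at 258, 75.7 and 11.5 CPM on WT plates 044, 468 and 469. WT plate 044 lay just below the lowest KO plate, and WT plates 468 and 469 lay well below. Its difference of 2.22 was 1.05 without WT plate 469, 0.46 within plates 043 and 044 and 3.09 within the later plates. With trimmed-mean (TMM) scaling the KO and WT plates of Fmod overlapped, as they did under several other settings, and it met the rule in 13 of 22 alternatives, against 21 of 22 for Col3a1 and for Col8a1.

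Col1a2 and Col5a2 also had KO and WT plates that did not overlap, with differences below 1. Col1a2 was at 317, 363 and 321 CPM on the KO plates and 219, 253 and 228 CPM on the WT plates, a difference of 0.52. Col5a2, which neighbours Col3a1 on chromosome 1, was at 105, 77.2 and 91.0 CPM (KO) and 51.1, 39.0 and 70.6 CPM (WT), a difference of 0.78. Within the earlier and the later plate run the Col1a2 difference was 0.53 and 0.51. Some members had large differences with overlapping plates. Col16a1 was at 15.5, 51.3 and 43.3 CPM on KO and 13.0, 0 and 33.8 CPM on WT plates, a difference of 2.1, with plate 468 at 0. Loxl1 was at 84.5, 26.9 and 33.6 CPM (KO) and 36.4, 41.0 and 4.58 CPM (WT), a difference of 1.08. Ogn was at 1359, 899 and 612 CPM (KO) and 743, 412 and 351 CPM (WT), a difference of 0.93. Ltbp1 was at 1110.3, 905 and 851 CPM on KO and 944, 879 and 813 CPM on WT plates, a difference of 0.11, and Eln at 301, 210.2 and 280.04 CPM (KO) and 203, 184 and 226 CPM (WT), a difference of 0.36. Mgp was at 746, 640.3 and 550.1 CPM (KO) and 651, 474 and 389 CPM (WT), a difference of 0.38. Thbs1 was at 761, 355 and 566 CPM (KO) and 297, 400.4 and 354 CPM (WT), a difference of 0.62, with KO plate 467 below the highest WT plate. Fn1 was at 148, 56.8 and 62.1 CPM (KO) and 28.5, 184 and 32.7 CPM (WT), a difference of 0.52, and WT plate 468 was highest.

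Marker sums were also compared in the same libraries, and KO and WT plates overlapped for the fibroblast, pericyte and choroid plexus markers but not for the lymphocyte markers. Of the 11 smooth muscle markers 2 were higher in mean on KO plates, and of the 7 ependymal markers 7 were, both with overlapping sums. In smooth muscle-like cells the 15 fibroblast markers summed to 66.0 to 195 CPM over the KO plates, against 42.4 to 93.2 CPM over the WT plates, with 13 of the 15 higher in mean on KO plates and Dpt at 0 throughout. The 9 pericyte markers summed to 2394 to 4346 CPM over the KO plates, against 1656 to 3021 CPM over the WT plates. In the 319 cells without any fibroblast marker read the differences of Col3a1 and Col8a1 were 1.54 and 1.72, no smaller than over all cells. In those cells Fmod was at 569, 227 and 273 CPM on KO plates and 266, 69.5 and 0.914 CPM on WT plates, so that KO plate 467 lay below WT plate 044. The Fmod difference there was 3.32, but with overlapping plates it did not meet the size rule. The 7 choroid plexus markers summed to 4.79 to 62.5 CPM over the KO plates, against 1.28 to 5.84 CPM over the WT plates, and the 7 lymphocyte markers to 4.68 to 11.4 CPM over the KO plates, against 16.1 to 23.7 CPM over the WT plates. The part of the pericyte, choroid plexus, ependymal and lymphocyte genes in these differences was not tested. The cluster make-up of the class also differed, since cluster 10 held 75 KO and 8 WT cells. Without cluster 10 the differences were 1.59 for Col3a1 and 1.54 for Col8a1.

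The unnamed clusters 4 and 7, with smooth muscle and pericyte genes together, repeated part of this pattern in other cells of the same plates, as a comparison added after the data were seen. Here 17 members were measured, and 3 of them, Col3a1, Col8a1 and Thbs1, were higher in the KO by the size rule and 0 were lower (3.91% and 1.74% of 9023 measured genes). All 17 differences were above 0 (58.5% of all measured genes), and their median was 0.72 against 0.13. Col3a1 was at 410.4, 232 and 257 CPM on KO plates and 35.7, 0.377 and 29.4 CPM on WT plates, a difference of 4.66. Col8a1 was at 261, 159 and 233 CPM (KO) and 53.1, 0 and 16.9 CPM (WT), a difference of 4.44. Thbs1 was at 105, 105 and 91.8 CPM (KO) and 45.3, 24.1 and 0.137 CPM (WT), a difference of 3.21. For each gene all KO plates lay above all WT plates, and the WT plates 468 and 469 held 12 and 19 cells. Cluster 7 came mostly from plates 043 and 044 (89 and 68 of 159 cells) and cluster 4 mostly from plates 467 to 471. The earlier and later plates of this set therefore hold different clusters. Fmod was at 552, 152 and 112 CPM (KO) and 318, 0.377 and 389.7 CPM (WT) and overlapped. Emilin1 (0.75) and Col5a2 (0.91) had plates apart with differences below 1. The fibroblast markers summed to 25.7 to 59.9 CPM over the KO plates, against 6.41 to 103 CPM over the WT plates in these clusters, and pericyte markers to 7937 to 9870.01 CPM over the KO plates, against 5422 to 8529.8 CPM over the WT plates. The 7 lymphocyte markers summed to 5.92 to 13.0 CPM over the KO plates, against 50.8 to 618 CPM over the WT plates, without overlap, and their part in these differences was not tested. Whether the difference of a gene was larger here than in smooth muscle-like cells was not tested.

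In fibroblast-like cells 39 of the 40 members were measured, and 1 was higher and 1 lower in the KO by the size rule (4.19% and 1.7% of 10544 measured genes). Fn1 was at 908, 1009 and 1749 CPM on KO plates 043, 467 and 471 and at 399, 226 and 347 CPM on WT plates 044, 468 and 469. All KO plates were above all WT plates, and the difference was 1.89 (SD 0.51 over the KO plates and 0.42 over the WT plates), or 1.18 and 2.24 within the earlier and later plates. Mfap4 was at 365, 209.7 and 228 CPM on KO plates 043, 467 and 471 and at 565, 567 and 722 CPM on WT plates 044, 468 and 469, with every KO plate below every WT plate and a difference of -1.24. An exon of Mapk7 overlaps Mfap4 on the other strand, and without a stated strand setting reads of the 2 genes cannot be told apart. The WT value rests on 39 cells, with 14, 11 and 14 on plates 044, 468 and 469. Over all cells, Fn1 was at 1141 CPM (1131 to 1151) in KO and 342 CPM (333 to 352) in WT, and Mfap4 at 298 CPM (293 to 303) and 628 CPM (615 to 642).

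Most other members had no separation in fibroblast-like cells. Of the 39, 27 differences were above 0 (60.9% of all measured genes), with a median of 0.30 against 0.17, and plates were apart for 2 members (10% of all measured genes). Col1a1 was at 1272, 1139 and 1449 CPM on KO and 1263, 1067 and 1619 CPM on WT plates, a difference of -0.02. Col3a1 was at 1243, 942 and 1567 CPM (KO) and 1267, 956 and 1019 CPM (WT), a difference of 0.19. Dcn was at 2337, 2362 and 1594 CPM (KO) and 2305, 3618 and 2319 CPM (WT), a difference of -0.38. The KO and WT ranges of these fibril genes overlapped, so that Col3a1 met the rule in smooth muscle-like cells and not here, and that contrast between classes was not tested. Eln was at 311, 152 and 533 CPM (KO) and 206, 123 and 136 CPM (WT), a difference of 0.95, and Mgp at 613, 572 and 371 CPM (KO) and 614, 567 and 626 CPM (WT), a difference of -0.25. Large differences with overlapping plates were found in both directions. Ltbp2 was at 13.6, 34.2 and 78.0 CPM (KO) and 0, 48.7 and 0.357 CPM (WT), a difference of 3.08. Tnc was at 44.3, 89.4 and 160.1 CPM (KO) and 40.3, 0 and 60.0 CPM (WT), a difference of 2.68. Col14a1 was at 8.58, 68.5 and 83.0 CPM (KO) and 6.23, 1.04 and 91.8 CPM (WT), a difference of 1.78. Fbn1 was at 145, 283 and 342 CPM (KO) and 106, 165 and 72.3 CPM (WT), a difference of 1.15. Fbln2 was lower in the KO, at 73.9, 9.33 and 8.01 CPM (KO) and 6.97, 121 and 77.5 CPM (WT), a difference of -1.15. In these cells the 11 smooth muscle markers summed to 1018 to 1788 CPM over the KO plates, against 365 to 768 CPM over the WT plates, with 10 of the 11 higher in mean on KO plates. The 7 choroid plexus markers summed to 347 to 419 CPM over the KO plates, against 169.8 to 269 CPM over the WT plates, and their part was not tested. Without the cells that carried markers of a second class the Fn1 difference was 2.08, and that of Mfap4 was -0.54 and below the rule. With the sub-clusters weighted equally the Fn1 difference was 1.34.

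**Figure D4:**
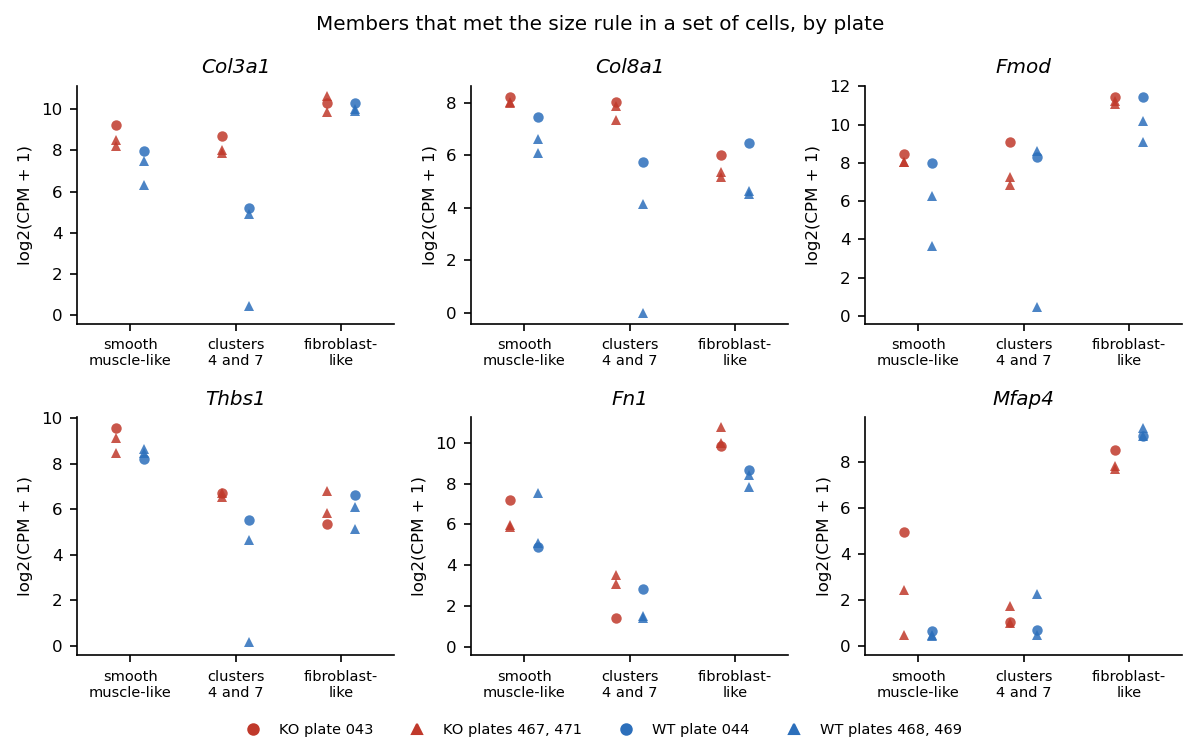
Levels of Col3a1, Col8a1, Fmod, Thbs1, Fn1 and Mfap4 per plate, log2(CPM + 1), in smooth muscle-like cells, clusters 4 and 7, and fibroblast-like cells, with KO and WT plates marked apart. Col3a1 and Col8a1 separate KO from WT plates in smooth muscle-like cells and in clusters 4 and 7, and Fn1 and Mfap4 separate them in fibroblast-like cells.

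Genes that act on this matrix were read from 5 lists that hold no member. In smooth muscle-like cells 6 of the measured list genes were higher in the KO by the size rule and 0 lower. Of all measured genes, 2.61% were higher and 0.928% lower there. Matrix turnover had 4 of 14, among them Adamts4 and Adamts5 (proteoglycan-cleaving proteases) and Reck (a membrane inhibitor of metalloproteinases). Adamts5 was at 179.7, 173 and 149 CPM on KO plates and 84.7, 63.3 and 83.2 CPM on WT plates, a difference of 1.12. Adamts4 and Reck differed by 3.02 and 1.37. Adamts4 was highest on KO plate 471, at 115 CPM against 14.3 and 16.7 CPM on the other KO plates. The elastic fibre partners had 1 of 10, Ltbp3 (1.15), and the other leucine-rich and matricellular genes 1 of 11, Tnr (2.09). Adamts4 and Tnr averaged 3.87 and 8.93 CPM over the WT plates, so they passed the 10 CPM filter through the KO plates. Collagen processing (20 measured) and matrix receptors (16 measured) had 0 in either direction. List medians were 0.79 for turnover, 0.27 for collagen processing, 0.26 for elastic fibre partners, 0.27 for the leucine-rich and matricellular genes and 0.13 for receptors. The median over all measured genes was 0.06.

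In fibroblast-like cells 6 list genes were higher and 0 lower, beside 4.19% and 1.7% of all measured genes. Collagen processing had 3 of 20, namely Pcolce2 (an enhancer of procollagen cleavage, 3.09), Loxl3 (a lysyl oxidase, 1.60) and Bmp1 (the procollagen C-proteinase, 1.10). Loxl3 was at 99.5, 114 and 164 CPM on KO plates and 76.1, 33.5 and 24.6 CPM on WT plates. Turnover had 1 of 20, and the leucine-rich and matricellular list 2 of 17, Aspn (asporin, 3.53) and Cyr61 (2.27). Pcolce2 and Aspn averaged 3.87 and 1.19 CPM over the WT plates and 34.9 and 22.9 CPM over the KO plates. Both passed the 10 CPM filter through the KO plates, and their differences set WT values near 0 against them. Elastic fibre partners (12 measured) and receptors (19 measured) had 0 in either direction. In clusters 4 and 7, 6 list genes were higher and 0 lower: Plau, Adamts5 and Plat of 13 turnover genes (4.38, 2.56 and 1.00), the integrins Itga10 and Itgb3 of 16 receptors (1.99 and 1.92), and Cyr61 (1.11) of 9. The shares of all measured genes there were 3.91% and 1.74%. WT means of Plau, Adamts5 and Itgb3 were 2.76, 9.69 and 7.06 CPM, so they passed the 10 CPM filter through the KO plates. Collagen processing (19 measured) and elastic fibre partners (10 measured) had 0 there. Adamts5 was thus higher by the rule in both smooth muscle-like cells and clusters 4 and 7, which share their plates.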

How the data were processed

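The counts per gene and cell, 2254 columns, are as the authors deposited them. Per the submitters' processing notes, TopHat2 2.1.1, SAMtools 0.1.18 and featureCounts of Subread 1.4.6-p5 were used with GRCm38 (mm10). The strand setting is not given in the sources used here, so antisense overlaps (among the members compared, Mfap4, Eln, Fn1 and Thbs1) and the sense overlap of Col3a1 with Gm47302 leave those counts uncertain. Gene lengths (the union of all annotated exons of a gene) and positions are from GENCODE M21 (GRCm38), with all 40 members matched.

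Cells with at least 50000 counts and 1000 detected genes were kept (2252). Log values of 2000 variable genes, without the members and Notch3, gave 30 principal components, a graph of 20 neighbours and Leiden clusters at resolution 1 (leidenalg 0.10.2, scikit-learn 1.9.0). Clusters were named from marker lists, with a mean scaled level of at least 0.8 and 3 markers in 25% of cells. A cluster stayed unnamed where another list had more of its 10 leading genes than its best list. That condition alone left clusters 4, 7 and 14 unnamed, with mean scaled levels of 0.819, 0.824 and 0.907 for smooth muscle, smooth muscle and endothelial genes. No doublet caller was run, and cells with markers of a second class (209) were removed as an alternative. Counts were summed per plate and class and divided by the library total, and log2(CPM + 1) was compared by plate with no test. Fitted scaling factors (edgeR 4.0.16, TMM) served as an alternative. The size rule was tested on simulated data. The simulated plates varied less than the WT plates of Col3a1, Col8a1 and Fmod did, so that run gives no error rate for these data. The members and lists were chosen with earlier results of these data known. The text names every member, and gives plate values for the 5 leading members per kilobase in each class, for those that met the size rule or had the 5 largest differences, and for a few fixed genes. The values of 1 gene of the matrix lists are not reported here.

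Intervals cover counting error only, and Smart-seq2 reads carry no molecular identifiers. Depth per cell sets the precision, and classes with few cells on a plate are the least precise.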

Additional observations from a re-analysis of the deposited data

How the results depend on the processing

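No paired analysis was possible because the labels give no replicate numbers and no animals. No called value changed its direction. Over the alternatives run for each, Col3a1 in smooth muscle-like cells differed by 0.92 to 1.75, Col8a1 by 0.77 to 1.73 and Fmod by 0.46 to 3.32, and Fn1 and Mfap4 in fibroblast-like cells by 1.18 to 2.24 and by -1.54 to -0.54. Counts of genes past the size rule were small and moved more. Without the filter on low values, 14 members and 12 list genes were higher and 1 list gene lower in smooth muscle-like cells, 1 list gene was lower in fibroblast-like cells, and 6 members and 12 list genes were higher in clusters 4 and 7. The members so added in smooth muscle-like cells had WT means of 0.0286 to 6.79 CPM. Among them were Dcn (3.37 CPM in KO and 0.841 in WT), Col1a1 (3.47 and 0.879) and Spp1 (1.29 and 0.0844). These 3 stayed at or below the fibroblast marker reference, and the part of fibroblast reads was not tested. With the filter met in either genotype, 5 members were higher in smooth muscle-like cells and 1 list gene was lower in fibroblast-like cells. On plates 043 and 044 alone, 9 members were higher and 1 list gene lower in smooth muscle-like cells, 4 members were higher and 3 lower in fibroblast-like cells with 12 and 4 list genes, and 5 members were higher and 2 list genes lower in clusters 4 and 7. On the later plates alone, 12 and 2 list genes were higher and lower in smooth muscle-like cells, 6 and 4 members and 4 lower list genes were found in fibroblast-like cells, and 5 members with 13 and 5 list genes in clusters 4 and 7. The shares of all measured genes moved as well. Without the filter 2.99% were higher in smooth muscle-like cells and 3.85% in clusters 4 and 7, and 3.32% with the filter met in either genotype in smooth muscle-like cells. On plates 043 and 044 alone, where a lone plate a genotype cannot overlap, 3.28%, 12.5% and 8.16% were higher and 1.64%, 9.95% and 7.24% lower in smooth muscle-like, fibroblast-like and clusters 4 and 7 cells. On the later plates alone these were 7.82%, 12.3% and 12.3% higher and 3.68%, 7.26% and 6.74% lower. TMM factors gave 2 higher members in fibroblast-like cells (4.21% of all measured genes). A gate on single genes gave 2 members highest in endothelial-like cells, and 2 higher members and 2 lower list genes in fibroblast-like cells (4.03% and 2.26% of all measured genes). With all deposited cells, 5, 1 and 2 members were highest in smooth muscle-like, pericyte-like and endothelial-like cells, and the pericyte-like class then had 32 cells. Without cells carrying markers of a second class, 10 members were highest in pericyte-like cells, and 3 members were higher, 0 lower and 1 list gene lower in fibroblast-like cells (8.28% and 3.79% of all measured genes). Without cluster 10, 1 list gene was lower in smooth muscle-like cells (1.02% of all measured genes). The causes were not tested.

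Leaving out 1 plate at a time gave 3 to 5 higher members, 6 to 14 higher list genes and 0 to 1 lower list genes in smooth muscle-like cells. It gave 1 to 4 higher and 1 to 3 lower members and 5 to 12 higher and 0 to 3 lower list genes in fibroblast-like cells, and 3 to 5 higher members with 4 to 13 higher and 0 to 4 lower list genes in clusters 4 and 7. Of all measured genes, 3.16% to 7.09% were then higher and 0.997% to 3.72% lower in smooth muscle-like cells. In fibroblast-like cells these shares were 5.21% to 11.1% and 2.59% to 6.54%, and in clusters 4 and 7 they were 5.04% to 10.9% and 2.58% to 5.97%. Leaving out KO plate 043 gave 5 higher members in smooth muscle-like cells and 3 in fibroblast-like cells (4.25% and 6.46% of all measured genes). Leaving out WT plate 044 gave the highest list counts (14, 12 and 13) and also the largest shares of all measured genes higher (7.09%, 11.1% and 10.9%). Without WT plate 044, 4 members were higher and 3 lower in fibroblast-like cells, beside 11.1% and 6.54% of all measured genes. The higher count there was 2 without KO plate 467 (5.42%), 4 without WT plate 468 (7.22%) and 3 without WT plate 469 (8.39%). The 5 higher members in clusters 4 and 7 came without WT plate 469, beside 7.83% of all measured genes. Limits: no animals are named, WT fibroblast-like plates held 11 to 14 cells, and pericyte-like and endothelial-like cells could not be compared between genotypes.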

Other observations

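Some members were high in cells outside the 4 classes. Ependymal-like cells (201 cells), which line the ventricles, had Col8a2 at 268 to 441 CPM over 6 plates, against 76.7 CPM on the highest fibroblast-like plate. The unnamed cluster 14 (44 cells), led by Gkn3 and Bmx with endothelial genes, had Fbln5 at 1414 and 786 CPM on WT plate 044 and KO plate 471, and Fbln2 at 535 and 422 CPM. Eln stood there at 243 and 238 CPM and Mgp at 1268 and 1024 CPM. The endothelial-like class had Fbln5 at 0.081 and 0.0572 CPM on plates 468 and 469, and these 2 groups of cells come from different plates.

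The unnamed cluster 13 (50 cells), led by Pappa2 and Dmp1, had Bgn at 2301, Mgp at 1511, Ltbp1 at 1448, Thbs1 at 741 and Col14a1 at 443 CPM over all its cells. The unnamed cluster 19 (19 WT cells), led by Slc47a1 and Cyp2f2, had Fn1 at 1408, Mgp at 1416, Fbln1 at 1257, Col12a1 at 1001 and Col8a2 at 442 CPM. Astrocyte-like cells had Sparc at 2109 and 1957 CPM on WT plates 468 and 469. Macrophage or microglia-like cells had Thbs1 at 431 and 236 CPM and Spp1 at 218 and 142 CPM on the same plates.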
